A study of Mus musculus with 87 samples.

Results

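The genes described here were close to silent in wild-type mouse embryonic stem cells, were transcribed after loss of SUZ12, and stayed close to silent after loss of 6 other subunits of the same complex. Library-scaled counts (CPM, the reads of a gene scaled to a library of 1000000 counted reads) were averaged over the 3 libraries of a genotype. The members were chosen by these measured levels. A gene identifier (ID) was a member when its mean was under 0.5 CPM in wild type (WT), 2 CPM or more in the Suz12 knockout (Suz12 KO) and under 0.5 CPM in the complete non-core knockout. By this rule 154 of 55450 IDs were members (0.278%). They were 49.4% of the 312 IDs that met the first 2 conditions. Of the others, 128 had a mean of 0.5 to 2 CPM in the complete non-core knockout and 30 had 2 CPM or more. The rule used WT, Suz12 KO and the complete non-core knockout, so the levels in those 3 genotypes are a description and carry no test.

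Polycomb repressive complex 2 (PRC2) methylates histone H3 at lysine 27 and is known for keeping developmental genes silent in embryonic stem cells. SUZ12 is a core subunit, with EED and the methyltransferases EZH1 or EZH2, and PRC2 is not active without it. The non-core subunits join the core in alternative assemblies: a Polycomb-like protein (PCL1, PCL2 or PCL3, from the genes Phf1, Mtf2 and Phf19), which can be joined by EPOP, or else JARID2 and AEBP2.

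The series holds 87 samples, of which 63 are chromatin immunoprecipitations that are not analysed here and 24 are RNA libraries, 3 for each of 8 genotypes. Beside WT and Suz12 KO there was a knockout of both genes of the JARID2 assembly (Jarid2 + Aebp2 KO) and a joint knockout of the 3 Pcl genes (Pcl1-3 KO). The latter was followed by further losses, of Epop (Pcl1-3 + Epop KO) or of Jarid2 (Pcl1-3 + Jarid2 KO). After Jarid2, Aebp2 was lost as well (Pcl1-3 + Jarid2 + Aebp2 KO). Last came the loss of all 6 targeted non-core genes together, Epop included, here called the complete non-core knockout. Complete refers to those 6 genes only. No drug, time course or animal age enters the RNA samples, and all cells grew on gelatin in medium with the 2i inhibitors, which hold stem cells in a naive state. The strain label is 129B6F1 for WT and changes with every genotype, so strain and genotype cannot be told apart as labelled. Whether a knockout is 1 clone, and whether its libraries are separate cultures, is not in the labels, so that a p-value here rests on a spread between libraries that may be technical.

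Library totals ran from 10148155 to 28442061 counts, so that 0.5 CPM stood for 5.07 to 14.2 counts and 2 CPM for 20.3 to 56.9 counts. A count of 0 allows a level of up to 0.105 to 0.296 CPM, taking 3 counts as the limit, which covers counting error only. Neither the count tables nor the reference table used here pair the IDs with symbols or positions. The members are therefore given by ID or by their rank in mean Suz12 KO level, rank 1 being the highest. The identity of the cells, the absence of each targeted transcript, and the members' function, position and promoters were for the same reason not analysed here.

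Suz12 KO was the genotype in which the members were read. Their summed level was 473, 529 and 695 CPM in its 3 libraries (mean 566 ± 115, SD, n = 3). In WT the sums were 37.3, 37.1 and 37.4 CPM (37.3 ± 0.129, n = 3), and in the complete non-core knockout 31.3, 32.4 and 38.9 CPM (34.2 ± 4.07, n = 3). The rule sets these 3 levels apart. In bulk RNA, fewer cells that express a gene and less of its RNA per cell cannot be told apart.

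**Figure D1:**
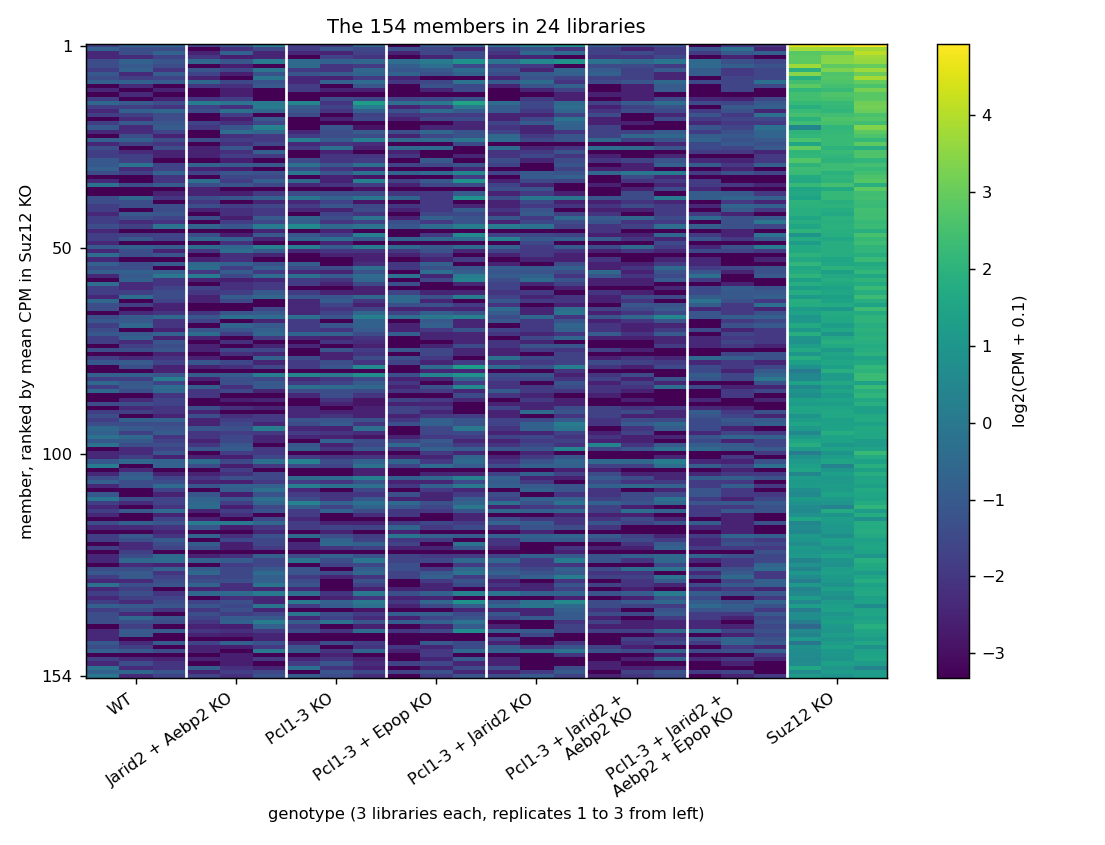
Level of each of the 154 members (rows, highest mean in Suz12 KO at the top) in the 24 RNA libraries (columns, 3 per genotype), as log2(CPM + 0.1). In 148 of the rows the 3 Suz12 KO columns at the right lie above all 21 other libraries, and the highest single value outside them is 2.75 CPM. The rule required a high mean in Suz12 KO and low means in WT and the complete non-core knockout. The count of 148 is a description, and no share of all IDs is given for it.

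The gain in Suz12 KO was small in absolute terms for most members and large for a few. By mean level in Suz12 KO, 87 members lay at 2 to 3 CPM, 45 at 3 to 5 CPM and 22 at 5 CPM or more, of which 5 reached 10 CPM. The 10 highest members held 19.9% of the summed level. From pooled counts, the level in Suz12 KO was a median of 14.6 times that in WT (4.40 to 72.2) and 15.5 times that in the complete non-core knockout (4.55 to 250.1). These folds set a genotype with 3 or fewer counts to 3 counts over its 3 libraries, which held for 28 members in WT and 34 in the complete non-core knockout. No count at all was found for 2 members in WT and 7 in the complete non-core knockout.

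ENSMUSG00000073243.2, the highest member, had 23.96, 26.7 and 30.3 CPM in Suz12 KO (26.99 ± 3.20, n = 3). It had 0.190, 0.493 and 0.499 CPM in WT, and 0, 0.156 and 0.158 CPM in the complete non-core knockout. Among the 5 genotypes that the rule did not use it was highest in Pcl1-3 + Jarid2 KO, with 0.718, 1.15 and 1.62 CPM, above all 3 WT libraries. ENSMUSG00000020566.19 ranked next in Suz12 KO, with 13.8, 13.1 and 13.4 CPM (13.4 ± 0.348, n = 3). Its WT libraries had 0.474, 0.296 and 0.285 CPM, and those of the complete non-core knockout 0.349, 0.701 and 0.0788 CPM. Its mean was 0.120 to 0.260 CPM in the 5 genotypes that the rule did not use, below its WT mean of 0.351 CPM in each.

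The other members at 10 CPM or more in Suz12 KO differed in how steady the gain was between libraries. Rank 3 had 6.76, 7.43 and 17.1 CPM, rank 4 had 7.25, 10.6 and 13.2 CPM, and rank 5 had 7.11, 10.8 and 12.3 CPM. All 3 were lowest in replicate 1 and highest in replicate 3. The same order held widely among the members. Replicate 3 was the highest Suz12 KO library for 113 members (73.4%), against 50.7% of 5461 other IDs whose Suz12 KO mean lay in the same range of 2.01 to 26.99 CPM, and replicate 1 was the lowest for 98 members. The highest Suz12 KO library was a median of 1.69 times the lowest. The ratio was over 2 for 51 members and over 3 for 14, with a maximum of 7.90. The median coefficient of variation between Suz12 KO libraries was 26.8% for the members and 14.9% for the other IDs of that range. The other IDs were matched by the ends of the range only, not by level within it, and 87 members lay at 2 to 3 CPM. Level may therefore enter these comparisons. The source of this spread was not tested.

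All 3 Suz12 KO libraries lay above all 3 WT libraries for 154 of 154 members. Of all 27259 IDs with a count in those libraries, 25.1% did so, and the rule used this contrast. For 148 members the Suz12 KO libraries also lay above each of the 21 other libraries. In the 6 exceptions the highest other library was replicate 3 of Pcl1-3 + Epop KO or of Jarid2 + Aebp2 KO. The 21 libraries include those of WT and the complete non-core knockout, whose means the rule required to be low. No share of all IDs is given for this count, which is a description.

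Many members sat near a limit of the rule. The mean in Suz12 KO was 2 to 2.5 CPM for 55 members, the WT mean 0.4 to 0.5 CPM for 28, and the mean in the complete non-core knockout 0.4 to 0.5 CPM for 24. The WT means next to the limit were 0.494 and 0.497 CPM inside it and 0.502 and 0.504 CPM outside. For Suz12 KO the nearest means were 2.01 and 2.01 CPM inside and 1.996 and 1.99 CPM outside. For the complete non-core knockout they were 0.485 and 0.491 CPM inside and 0.511 and 0.511 CPM outside.

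**Figure D2:**
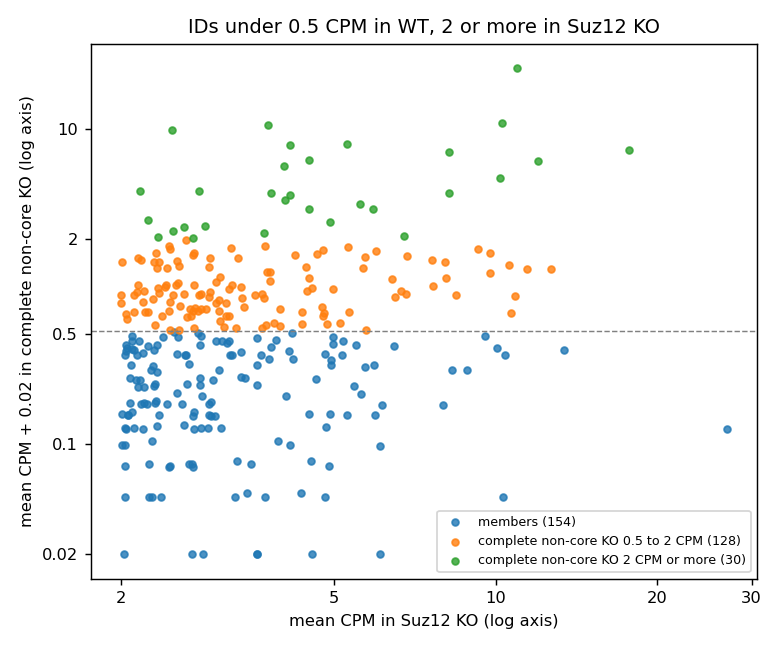
Mean level in Suz12 KO (x axis, CPM, log axis) and in the complete non-core knockout (y axis, CPM + 0.02, log axis) of the 312 IDs under 0.5 CPM in WT and at 2 CPM or more in Suz12 KO. The dashed line marks the limit of 0.5 CPM: the 154 members lie below it, and the 128 and 30 other IDs continue above it without a gap.

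The rule was also applied to 2 replicate numbers and read in the third, which it then had not used. With replicate 3 left out it took 123 IDs, 101 of them members, and in replicate 3 of Suz12 KO 109 of the 123 (88.6%) were again at 2 CPM or more. With replicate 2 left out it took 149 IDs, 126 of them members, and 116 (77.9%) were at 2 CPM or more. With replicate 1 left out it took 180 IDs, 137 of them members, but only 103 (57.2%) were at 2 CPM or more in replicate 1, the lowest Suz12 KO library for most members. In the left-out library of the complete non-core knockout 86.2% to 88.9% of these IDs were again under 0.5 CPM. Every one of the 123, 149 and 180 IDs was higher in the left-out Suz12 KO library than in that of the complete non-core knockout. It was more than 4 times as high for 116, 139 and 161 of them. The left-out libraries are of the same genotypes in which the rule required the gap, and may come from the same cultures. A higher level in Suz12 KO was thus likely from the choice of IDs alone. These counts are a description and no independent test. The shares of all IDs that did so are not given here.

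The 5 genotypes that the rule did not use show how the members stood after smaller losses of non-core subunits. The summed level was 41.6 ± 9.50 CPM in Pcl1-3 KO, 42.0 ± 17.4 CPM in Pcl1-3 + Epop KO, 36.8 ± 8.60 CPM in Jarid2 + Aebp2 KO, 40.5 ± 6.55 CPM in Pcl1-3 + Jarid2 KO and 30.8 ± 7.93 CPM in Pcl1-3 + Jarid2 + Aebp2 KO (SD, n = 3 each). The libraries of all 5 genotypes overlapped each other in summed level, and each had libraries on both sides of the WT values. In Pcl1-3 + Jarid2 + Aebp2 KO, for example, the sums were 26.2, 26.2 and 39.95 CPM, with replicate 3 above WT. Replicate 3 gave the highest sum in each of the 8 genotypes, although in WT the 3 sums were nearly equal.

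**Figure D3:**
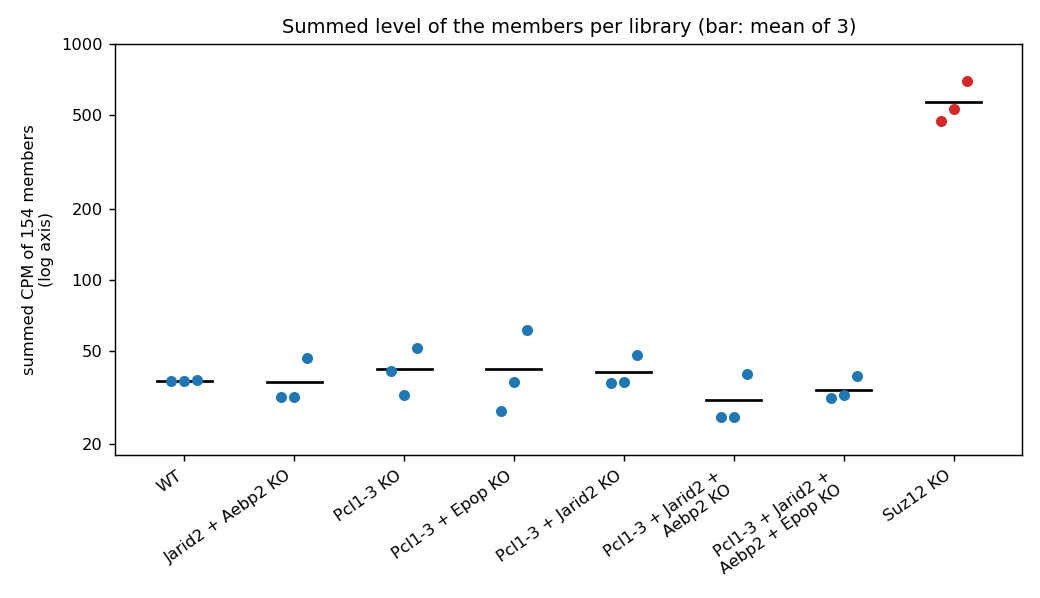
Summed CPM of the 154 members in each library (points, replicates 1 to 3 from left) by genotype, on a log axis, with the mean of 3 libraries as a bar. Suz12 KO lies at 473 to 695 CPM and the other 21 libraries between 26.2 and 61.4 CPM.

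Most members were under 0.5 CPM in these genotypes too. In all 5 genotypes, 110 members (71.4%) had a mean under 0.5 CPM. The other 44 reached 0.5 CPM in at least 1 of the 5, in 1 genotype for 19 members, in 2 for 10, in 3 for 9, in 4 for 4 and in all 5 for 2. Pcl1-3 KO had 26 such members, Pcl1-3 + Epop KO 22, Pcl1-3 + Jarid2 KO 18, Jarid2 + Aebp2 KO 16 and Pcl1-3 + Jarid2 + Aebp2 KO 10. As shares of the members these were 16.9%, 14.3%, 11.7%, 10.4% and 6.49%. Of all 41873 IDs under 0.5 CPM in WT, 1.09%, 1.24%, 1.42%, 1.10% and 1.04% reached 0.5 CPM in the same order, smaller shares than among the members. These are unlike sets: only 17817 of the 41873 had a count in any library, while the rule took members with 2 CPM or more in Suz12 KO. Among the other IDs gained in Suz12 KO the shares were larger than among the members. They were 35.9% to 60.2% of the 128 IDs and 56.7% to 80.0% of the 30 IDs. A mean of 1 CPM was reached by 4 members in at least 1 of these genotypes, and 2 CPM by 0 members. A member's WT mean and its mean over the 5 genotypes had a Spearman rho of 0.55 across the 154 members, while the Suz12 KO mean had a rho of 0.05 with the mean over the 5 and 0.00 with WT. Members are not independent replicates, their levels share libraries and depth, and these values are a description. The mean over the 5 genotypes was above the WT mean for 76 members and below it for 78.

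The 4 members that reached 1 CPM did so in genotypes that lacked the Pcl genes, as all of the 5 genotypes but Jarid2 + Aebp2 KO do. Rank 15 had the highest mean of any member in the 5 genotypes, 1.43 CPM in Pcl1-3 + Epop KO, where its libraries spread over 0.677, 0.871 and 2.75 CPM. It spread as widely in Pcl1-3 KO, at 1.24, 0.142 and 2.32 CPM, against 0.569, 0.394 and 0.285 CPM in WT. In Jarid2 + Aebp2 KO this member had 1.02, 0.789 and 0.878 CPM, above each WT library. Rank 5 was above 0.5 CPM on average in all 5 genotypes and had 0.790, 1.31 and 1.76 CPM in Pcl1-3 + Jarid2 KO, against 0.284, 0.493 and 0.356 CPM in WT. That was a small part of its 10.1 CPM in Suz12 KO, and in the complete non-core knockout it was back at 0.611, 0.311 and 0.236 CPM. ENSMUSG00000073243.2 (1.16 CPM in Pcl1-3 + Jarid2 KO) and the member of rank 81 (1.23 CPM in Pcl1-3 KO) were the other two.

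Set against its own level in Suz12 KO, the median member reached 6.93% in WT, 6.29% in Pcl1-3 KO, 6.20% in Pcl1-3 + Epop KO, 6.28% in Jarid2 + Aebp2 KO, 6.41% in Pcl1-3 + Jarid2 KO and 4.53% in Pcl1-3 + Jarid2 + Aebp2 KO. The 128 IDs at 0.5 to 2 CPM in the complete non-core knockout reached 8.43%, 12.1%, 13.6%, 10.4%, 16.8% and 11.0% in the same order. For the 30 IDs at 2 CPM or more in the complete non-core knockout the values were 5.02%, 13.7%, 14.8%, 9.52%, 19.6% and 15.1%. In each of the 5 genotypes the median of the members was thus below its WT value and the medians of both other sets were above theirs. Members and other sets were split by their level in the complete non-core knockout, which shares subunit losses with all 5 genotypes, and the difference between the sets was not tested.

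**Figure D4:**
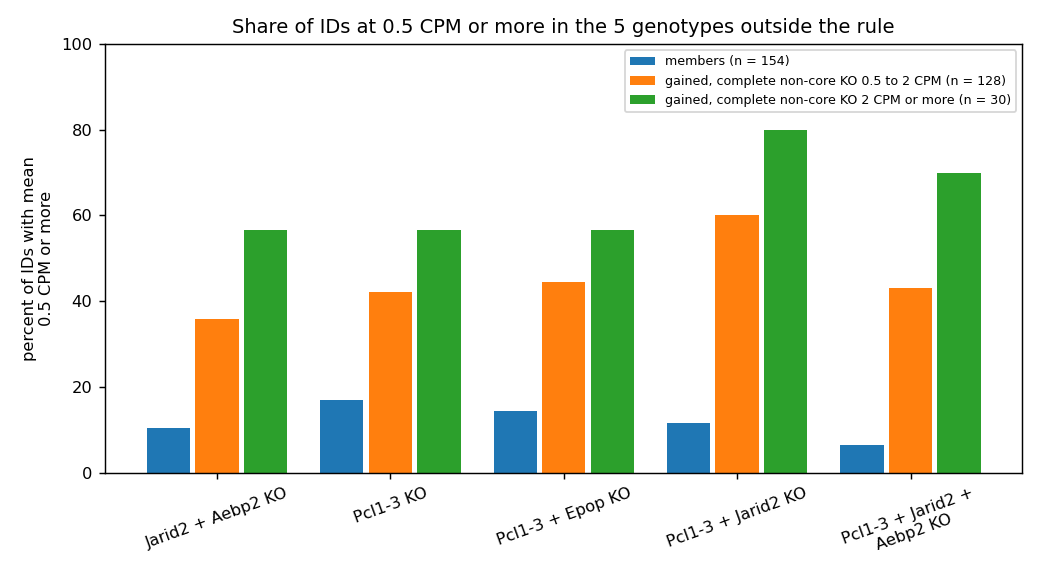
Percent of IDs with a mean of 0.5 CPM or more in the 5 genotypes that the rule did not use, for the members and for the 2 sets of other IDs gained in Suz12 KO (bars start at 0). The members run from 6.49% to 16.9%, the 128 IDs from 35.9% to 60.2% and the 30 IDs from 56.7% to 80.0%.

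The comparisons of these genotypes with WT ask which losses of non-core subunits change a gene, but they share the 3 WT libraries in which the rule required a low level. They are given as counts beside those of all 14650 IDs tested. Of the members, 153 passed the filter on low counts, which the Suz12 KO libraries alone can satisfy. By edgeR's quasi-likelihood test with Benjamini-Hochberg adjustment over all IDs tested, 1 member was higher and 4 were lower in Pcl1-3 KO (4.35% of all IDs higher and 4.35% lower). In Pcl1-3 + Epop KO 1 was higher and 1 lower (3.94% and 3.67%), and in Jarid2 + Aebp2 KO 0 were higher and 1 lower (2.26% and 2.13%). In Pcl1-3 + Jarid2 KO 3 were higher and 2 lower (9.26% and 7.91%), and in Pcl1-3 + Jarid2 + Aebp2 KO 0 were higher and 7 lower (7.95% and 7.08%). The median fitted log2 fold change of the members was -0.11, -0.11, -0.08, -0.03 and -0.36 in that order, with a median over all IDs of 0.00 to 0.01. In the same order, 10, 8, 4, 22 and 10 of the 128 other gained IDs were higher and 1, 0, 0, 0 and 2 lower. Of the 30 other gained IDs 5, 5, 0, 15 and 10 were higher, and 0 were lower in each of the 5 comparisons.

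These calls on members rested on few libraries. Without 1 library the number of members called was 1 to 9 in Pcl1-3 KO (1 without its replicate 3 or WT replicate 1, 2 without its replicate 1, 3 without WT replicate 2, 9 without its replicate 2) and 0 to 4 in Pcl1-3 + Epop KO (0 without its replicate 2 or WT replicate 2, 4 without its replicate 1, 1 without any of the others). It was 0 or 1 in Jarid2 + Aebp2 KO (0 without its replicate 1 or 3 or WT replicate 1), 0 to 4 in Pcl1-3 + Jarid2 KO (0 without WT replicate 1, 1 without its replicate 3, 2 without WT replicate 2) and 3 to 5 in Pcl1-3 + Jarid2 + Aebp2 KO (3 without its replicate 2).

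The comparisons between genotypes that follow, 4 in number, contrast none of the 3 genotypes in the rule, and each asks what the loss of a further subunit does to the members. The fit over all 24 libraries still took its filter on low counts and its spread from the genotypes of the rule as well. When filter and fit were restricted to the 15 libraries of the 5 other genotypes, an alternative chosen after seeing the data, only 19 of the 154 members had enough counts to be tested. By edgeR 0 of these 19 were called in any of the 4 comparisons. Of all 13699 IDs tested in that fit, 2.93% were higher and 1.96% lower after loss of Jarid2. After loss of Pcl1-3 the shares were 6.86% and 6.08%, after loss of Aebp2 0.204% and 0.277%, and after loss of Epop 0% and 0%. The 19 were too few to set 0 calls apart from these shares. An unadjusted p under 0.05 was found for 1 of the 19 after loss of Epop in addition to Pcl1-3, for 7 after loss of Jarid2 in addition to Pcl1-3, for 2 after loss of Aebp2 in addition to Pcl1-3 and Jarid2, and for 3 after loss of Pcl1-3 in addition to Jarid2 and Aebp2. The share of all IDs at that unadjusted p is not given here. This restricted fit did not take the replicate number into account, although same-numbered libraries deviated together in these 4 comparisons. It was not run with that pairing, so its 0 calls do not show that the 19 members were unchanged. For the other 135 members the depth was too low for a test there.

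The fit over all 24 libraries tested 153 members, most of which did not pass the filter without the high counts of the rule's genotypes. Its calls are given as counts and support no change. After loss of Jarid2 it called 1 member higher and 2 lower (3.71% of all IDs were higher and 2.56% lower), of which 1 was among the 19. After loss of Pcl1-3 it called 2 higher and 5 lower (6.87% and 6.83%), of which 0 were among the 19. Loss of Epop gave 0 calls (0.00683% and 0%), and loss of Aebp2 gave 0 calls (0.341% and 0.560%). The share of all IDs at an unadjusted p under 0.05 is not given here, so the members at it are a description. They numbered 33, 22, 1 and 17 after loss of Jarid2, Pcl1-3, Epop and Aebp2 (edgeR). DESeq2 over all libraries called 3, 2, 0 and 0 members in that order. With only the 2 genotypes compared in the fit, edgeR called 2 and 0 members after loss of Jarid2 and of Pcl1-3. The median standard error of a member's log2 fold change was 0.80 to 0.89.

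**Figure D5:**
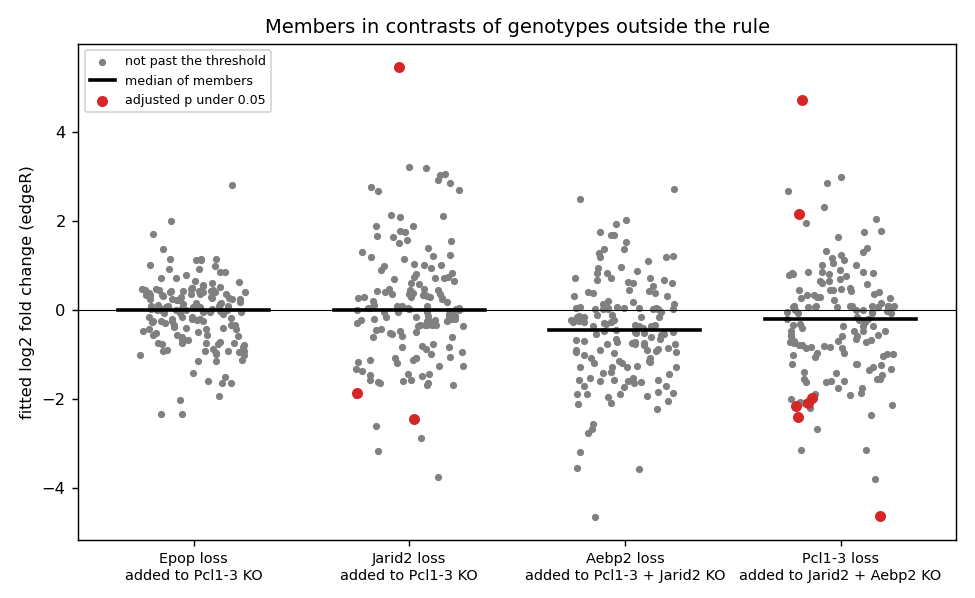
Fitted log2 fold change (edgeR) of the 153 tested members in the 4 comparisons of genotypes that the rule did not use. Points are members, red where the adjusted p is under 0.05 in the fit over all 24 libraries, where most members passed the filter with the help of Suz12 KO, and the bars mark the members' medians, from -0.45 for Aebp2 loss to 0.00 for Epop loss.

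The calls after loss of Jarid2 concerned the members of rank 20, 81 and 106. ENSMUSG00000079350.2, of rank 20, had no count in the 3 libraries of Pcl1-3 KO and 0.215, 0.411 and 0.541 CPM in Pcl1-3 + Jarid2 KO, 16 counts in all. Taking 3 counts over the 3 Pcl1-3 KO libraries as the limit, its measured level in Pcl1-3 + Jarid2 KO was 7.01 times that limit. The counting error of the 16 counts is not included. WT had 0.190, 0.394 and 0.356 CPM, which overlapped Pcl1-3 + Jarid2 KO. Pcl1-3 + Epop KO had 1 count and Pcl1-3 + Jarid2 + Aebp2 KO 2 counts over their 3 libraries. In Suz12 KO it had 5.12, 5.61 and 5.12 CPM, above every other library, and it entered the fit through those libraries, so no p is given. Both this ID and the next were named after their values were seen.

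ENSMUSG00000040258.6, of rank 81, was the called member among the 19. It had 1.24, 0.855 and 1.58 CPM in Pcl1-3 KO and 0.287, 0.328 and 0.0676 CPM in Pcl1-3 + Jarid2 KO, with no overlap (log2 fold change -2.46, SE 0.68, adjusted p = 0.0333, edgeR over all libraries). Restricted to the 5 genotypes outside the rule the adjusted p was 0.0665 (edgeR). The call also ended without replicate 1 or 3 of Pcl1-3 KO or without any replicate of Pcl1-3 + Jarid2 KO, and over 12 alternatives the adjusted p was 0.000511 to 0.184. The highest member, ENSMUSG00000073243.2, had 0.177, 0.142 and 0.527 CPM in Pcl1-3 KO and missed the threshold in this comparison (log2 fold change 1.78, SE 0.57, adjusted p = 0.0671, edgeR, and 0.00282 to 0.290 over 12 alternatives). It passed in 4 of the 12 alternatives, among them the replicate number as a block (adjusted p = 0.00764, edgeR), and missed the threshold in 8. In the fit restricted to the 5 genotypes its adjusted p was 0.160 (edgeR).

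In the fit over all libraries with that block, which the deviations of same-numbered libraries call for in these 4 comparisons, the members called after loss of Jarid2 went from 3 to 9 (6 higher and 3 lower) and those after loss of Aebp2 from 0 to 1 (lower). Calls over all 14650 IDs tested rose with the block as well, from 918 to 1949 after loss of Jarid2 and from 132 to 432 after loss of Aebp2. The rise is thus not particular to the members. For the fits without single libraries the shares of all IDs are not given here. In these fits the calls on members after loss of Jarid2 numbered 1 and 6 when replicate 1 or 2 of Pcl1-3 KO was left out. Leaving out replicate 1 of Pcl1-3 + Jarid2 KO gave 5, and leaving out its replicate 2 or 3 gave 1. After loss of Aebp2 there was 1 call when Pcl1-3 + Jarid2 KO replicate 1 was left out and 0 when any other library was.

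The 7 calls after loss of Pcl1-3 in addition to Jarid2 and Aebp2 rested on similarly few counts. The member of rank 64 had no count in Jarid2 + Aebp2 KO and 9 counts over the 3 libraries of Pcl1-3 + Jarid2 + Aebp2 KO, while rank 27 went the other way, from 9 counts to none. The log2 fold changes of the other 5 were 2.16 for rank 23 and -2.40, -2.16, -2.09 and -1.97 for rank 35, 129, 140 and 51. None of the 7 was among the 19. All 7 lost the call with only the 2 genotypes in the fit, and each lost it in 5 to 9 of 11 alternatives, with adjusted p up to 0.300 (edgeR and DESeq2). The calls numbered 4 without Jarid2 + Aebp2 KO replicate 1, 3 without its replicate 2 or 3, 3 without Pcl1-3 + Jarid2 + Aebp2 KO replicate 1, 0 without its replicate 2 and 2 without its replicate 3.

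After loss of Aebp2 in addition to Pcl1-3 and Jarid2, 53 of 153 members had a higher and 100 a lower fitted level, with 0 calls. This was in the fit over all libraries, and only 19 members passed the filter without the genotypes of the rule. Members share libraries and are not replicates, so the split is a description and was not tested. The split of all IDs is not given here. The median log2 fold change of the members was -0.45. The median over all IDs tested was 0.00. The other gained IDs had medians of -0.46 (128 IDs) and -0.47 (30 IDs) in the same comparison. For loss of Jarid2 in addition to Pcl1-3 the members' median was -0.01, and those of the other sets were 0.26 and 1.15.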

How the data were processed

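RNA was measured in 24 libraries. What the authors deposited are raw read counts for each Ensembl ID, whole numbers whose totals differ between libraries. STAR, HTSeq and mm10 are listed, with no version, in the submitters' processing notes. No source used here gives the strandedness of the counting, so overlapping and antisense genes, and near-identical copies, are uncertain. All 24 libraries were without a count for 24056 of 55450 IDs. CPM are counts over the sum of all counts of the library, times 1000000.

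Counts were fitted over all 24 libraries with edgeR 4.0.16 (R 4.3.3): filterByExpr with a minimum count of 10, which 14650 IDs passed, TMM scaling, robust dispersions, 1 mean per genotype and the quasi-likelihood test. Calls have a Benjamini-Hochberg adjusted p under 0.05 over all IDs tested. Alternatives used DESeq2 1.42.0, DESeq2 size factors, no filter, only the genotypes compared, a replicate block, each library left out and, added later, filter and fit on the 5 genotypes outside the rule. The fit was tested on simulated data.

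Same-numbered libraries deviated together in the 4 comparisons without WT (Pearson r of deviations of log2 CPM, 0.200 to 0.710, each of 3 pairs over 0.1), so there the numbers were taken to pair the libraries. The pairing comes from the data, since the labels give the numbers only.

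The members and lists were chosen with earlier results of these data known. Named IDs were to be taken from symbols and lists; as no symbols were matched, the 2 IDs with the highest Suz12 KO level are named, and 2 more with calls. Gene lists, cell type markers, targeted genes and distance to the SUZ12, JARID2 and PCL2 peaks were not analysed here.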

Additional observations from a re-analysis of the deposited data

How the results depend on the processing

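The number of members followed the limits of the rule: 80 with a WT limit of 0.25 CPM, 453 and 41 with a Suz12 KO limit of 1 and 4 CPM, and 92 and 234 with a limit of 0.25 and 1 CPM in the complete non-core knockout. It was 124 with TMM-scaled CPM and 132 with DESeq2 size factors, all of them among the 154, and 123 to 180 without single libraries or replicate numbers. TMM scaling moved the summed level in WT to 38.0 CPM. Leaving out the same replicate number of the 3 genotypes of the rule, and the alternatives for summed levels, were chosen after seeing the data. Without single libraries the sums were 37.2 to 37.4 CPM in WT, 501 to 612 in Suz12 KO, 36.7 to 46.2 in Pcl1-3 KO, 32.3 to 49.1 in Pcl1-3 + Epop KO, 31.8 to 39.3 in Jarid2 + Aebp2 KO, 36.7 to 42.4 in Pcl1-3 + Jarid2 KO, 26.2 to 33.1 in Pcl1-3 + Jarid2 + Aebp2 KO and 31.9 to 35.6 in the complete non-core knockout. Members called against WT numbered 8, 6 and 2 without the low-count filter (in Pcl1-3 KO, then with Epop also lost, then in Jarid2 + Aebp2 KO), and 0, 0 and 4 by DESeq2 in Pcl1-3 + Epop KO, Jarid2 + Aebp2 KO and Pcl1-3 + Jarid2 + Aebp2 KO. With only the 2 genotypes compared they numbered 0, 0 and 3 in the same 3. With the replicate block they were 12, 10, 4 and 10 in Pcl1-3 KO, in Pcl1-3 + Epop KO, in Jarid2 + Aebp2 KO and in Pcl1-3 + Jarid2 KO; in comparisons with WT the libraries share only a number (r of deviations 0.0749 to 0.289, best with the own number in 11 of 15). Without single libraries these counts were 1 to 9, 0 to 4, 0 to 1, 0 to 4 and, in Pcl1-3 + Jarid2 + Aebp2 KO, 3 to 5. After loss of Jarid2 the members called were 8 without the filter, 9 with the replicate block and 1 to 6 without single libraries; after loss of Aebp2, 1 without the filter, 1 with the block and 0 to 1; after loss of Pcl1-3, 2 by DESeq2, 0 with only the genotypes compared and 0 to 4; after loss of Epop, 0 to 0. With filter and fit on the 5 genotypes outside the rule, chosen after seeing the data, 0 members were called after loss of Jarid2 and 0 after loss of Pcl1-3, since 2 of the 3 and 7 of the 7 called members were no longer tested, and over all IDs Epop loss had 0 calls and Aebp2 loss 66. The block changed no other count of members by over 1.5 times. Over all IDs the calls went, with the block, from 1274 to 2895 (Pcl1-3 KO against WT), 1115 to 2730 (Pcl1-3 + Epop KO), 643 to 2281 (Jarid2 + Aebp2 KO), 2516 to 4052 (Pcl1-3 + Jarid2 KO), 2202 to 3851 (Pcl1-3 + Jarid2 + Aebp2 KO), 1 to 2 (Epop loss), 918 to 1949 (Jarid2 loss), 132 to 432 (Aebp2 loss) and 2007 to 3489 (Pcl1-3 loss). Without the filter 5 of these were 2001, 1810, 1444, 20 and 391 (in Pcl1-3 KO, in Pcl1-3 + Epop KO, in Jarid2 + Aebp2 KO, for Epop loss and for Aebp2 loss). By DESeq2 Jarid2 + Aebp2 KO had 1055 and Aebp2 loss 237. With only the genotypes compared Pcl1-3 + Epop KO had 138, Pcl1-3 + Jarid2 KO 4099, Epop loss 0 and Pcl1-3 loss 1285. The cause of these shifts was not tested. The alternatives for peaks near members were not run. Depth limits all levels under 0.5 CPM, which rest on a few counts per library.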
